A study of Mus musculus with 14 samples.

Results

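Elastic fibre and microfibril genes were followed in whole hearts of mice with and without Sqstm1 in heart muscle cells, at 15 and at 2 months of age. Sqstm1 encodes p62, an autophagy receptor, and the study's title concerns cardiac p62, Nrf2 protein and oxidative stress. The set is a list of 10 named genes, namely Fbn1, Fbn2, Mfap2, Mfap4, Mfap5, Adamtsl2, Eln, Fbln1, Fbln2 and Fbln5. Each was found by its Ensembl identifier and its GENCODE M21 symbol among the 55487 identifiers of the deposited count table. All 10 were among the 15528 genes with enough counts to be tested.

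The 14 libraries fall into 4 groups. There were 4 knockout hearts at 15 months and 4 wild-type hearts at 15 months, and 3 knockout hearts at 2 months and 3 wild-type hearts at 2 months. All mice were untreated C57BL/6 males. The knockout genotype was Myh6-Cre-Sqstm1fl/fl, in which Cre is driven by the Myh6 promoter of cardiac muscle cells, a promoter not used by fibroblasts or vessel cells. The labels call the controls wildtype and do not state whether these carried Cre or a floxed allele. RNA was taken from the whole organ, so every value sums over muscle, fibroblasts, vessels, valves and any other cell collected. In such samples fewer cells of a type and less RNA per cell cannot be told apart.

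Elastic fibres let arteries, valves and the heart wall recoil after stretch. They are built from a core of cross-linked elastin laid down on a scaffold of microfibrils, thin filaments made mainly of fibrillin. Small glycoproteins bind the microfibrils, fibulins help to deposit elastin on them, lysyl oxidases cross-link the product, and microfibrils also hold latent TGF-beta in store. In the heart the genes are known mainly from fibroblasts, vascular smooth muscle, valve cells and the roots of the great vessels, and elastin is made chiefly in early life.

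Fbn1 encodes fibrillin-1, the main microfibril protein, and lies on chromosome 2 from 125300594 to 125507993 on the minus strand (GRCm38, as for all positions here). Fbn2 encodes fibrillin-2, a fibrillin made chiefly during development, and lies on chromosome 18 from 58008623 to 58210487. Mfap2 (chromosome 4, 141010418 to 141015984) and Mfap5 (chromosome 6, 122505845 to 122529290) encode a pair of related glycoproteins of microfibrils. Mfap4 (chromosome 11, 61485431 to 61488900) encodes a secreted protein that binds elastic fibres. Adamtsl2 (chromosome 2, 27079379 to 27108981) encodes a secreted glycoprotein that binds fibrillin-1 and has no protease activity.

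Eln (chromosome 5, 134702593 to 134747323) encodes elastin. The fibulin genes are Fbln1 (chromosome 15, 85205949 to 85286535), Fbln2 (chromosome 6, 91212455 to 91272540) and Fbln5 (chromosome 12, 101746565 to 101819055). Fibulin-5 is required for elastic fibre assembly in mice. The values below are read counts summed over the exons of each whole gene.

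The Adamtsl2 transcript fell with age in wild-type hearts, and was lower relative to Fbln1, Fbln2 and Fbln5 in older hearts of both genotypes. Promoter sequences are shown for Adamtsl2, Fbln1 and Fbln5, the genes with an available sequence before a start that holds no annotated exon. Each is the 250 bases before a RefSeq transcript start (GRCm38.p6), written 5′ to 3′ on the strand of the gene. The windows are chr2:27079129-27079378 (plus strand) for Adamtsl2, chr15:85205699-85205948 (plus strand) for Fbln1 and chr12:101819120-101819369 (minus strand) for Fbln5. Capitals mark matches on either strand to 4 motifs, a TATA box (TATAAA), a GC box (GGGCGG), the CCAAT box (CCAAT) and the Smad-binding motif CAGAC.
Adamtsl2: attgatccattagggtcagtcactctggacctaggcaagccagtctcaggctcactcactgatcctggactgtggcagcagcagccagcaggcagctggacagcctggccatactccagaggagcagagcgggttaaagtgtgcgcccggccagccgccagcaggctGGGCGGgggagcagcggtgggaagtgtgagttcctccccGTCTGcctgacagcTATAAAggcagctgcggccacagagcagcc
Fbln1: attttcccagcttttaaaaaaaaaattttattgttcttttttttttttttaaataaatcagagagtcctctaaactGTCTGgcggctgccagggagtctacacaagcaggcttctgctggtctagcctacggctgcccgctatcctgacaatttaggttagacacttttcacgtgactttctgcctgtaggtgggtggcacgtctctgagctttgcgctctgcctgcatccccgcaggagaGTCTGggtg
Fbln5: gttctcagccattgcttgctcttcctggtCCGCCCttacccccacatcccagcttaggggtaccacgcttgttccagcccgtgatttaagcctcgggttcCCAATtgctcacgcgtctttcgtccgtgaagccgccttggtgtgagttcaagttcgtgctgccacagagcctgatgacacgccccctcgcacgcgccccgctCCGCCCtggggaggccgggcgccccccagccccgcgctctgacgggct
The Adamtsl2 window held a TATA box that begins at position −30, a GC box at −83 and a CAGAC match at −44, counted back from the start. Its CAGAC match reads GTCTG on the gene's strand. The Fbln1 window held neither a TATA box, a GC box nor a CCAAT box, and had CAGAC matches at −174 and −9. In the Fbln5 window there were GC boxes at −221 and −48 and a CCAAT box at −150, with no TATA box. Of 32851 RefSeq windows of the same length in the mouse, 12.4% held the TATA box, 32.7% the GC box, 33.8% the CCAAT box and 42.2% the CAGAC motif, so of these matches the TATA box was the least common. A match is a string of letters and was not tested as a binding site. Of the 10 genes, 6 had a window in the RefSeq table used. The table also holds a second start for Fbln1, whose window had 1 GC box and 2 CAGAC matches, and for Fbln5, whose window had 2 CAGAC matches and neither a GC box nor a CCAAT box.

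Total counts per library ran from 20218992 to 30404416, and mitochondrially encoded genes took 27.5% to 46.0% of them. Sqstm1 was at 14.6 to 37.0 CPM in the 15-month knockout hearts, against 173 to 238 CPM in the 15-month wild-type hearts, and at 14.7 to 19.2 CPM in the 2-month knockout hearts, against 139 to 177 CPM in the 2-month wild-type hearts, so every library matched its genotype label. CPM are counts relative to library totals scaled by TMM. Wild-type replicate 1 at 2 months stood apart. Its 6 atrial markers summed to 1728 CPM (91.7 to 149 CPM in the other 2-month libraries), its 8 valve and outflow tract markers to 88.8 CPM (3.55 to 5.56 CPM) and its 10 fibroblast markers to 2223 CPM (875 to 1409 CPM). Some 15-month hearts also differed in these sums. The atrial sum was 285 CPM in wild-type replicate 1 (22.6 to 81.2 CPM in the other 15-month wild-type hearts). In knockout replicate 1 it was 151 CPM (9.18 to 16.2 CPM in the other 15-month knockout hearts). Wild-type replicate 3 had a valve and outflow tract sum of 40.6 CPM (9.64 to 15.0 CPM). It also had the highest Eln, Mfap2, Mfap4 and fibulin levels of its group. The part of such tissue in the 15-month values was not tested. The cardiac muscle list was detected in full in every library, at 42304 to 90904 CPM. No fibroblast, smooth muscle, pericyte, endothelial or macrophage marker was at 0 in any library, while the atrial marker Sln was at 0 in 5 libraries.

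Wild-type replicate 1 at 2 months set the 2-month wild-type level of most of the 10 genes. In it 7 of the 10 were above all 5 other 2-month libraries. Mfap4 was 6.31 times the mean of the other two 2-month wild-type hearts, Mfap2 5.69 times, Eln 2.93 times, Fbln5 2.92 times, Fbln1 2.67 times, Adamtsl2 2.46 times and Fbln2 1.49 times. Fbn1, Fbn2 and Mfap5 in that library lay within the range of the other 2-month libraries. For this reason, results for the 10 genes that rest on the 2-month wild-type group are given with and without that heart, for related genes where it changes a direction or a call or moves a value by over 1.5 times, and the part of its atrial and valve markers in them was not tested.

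**Figure D1:**
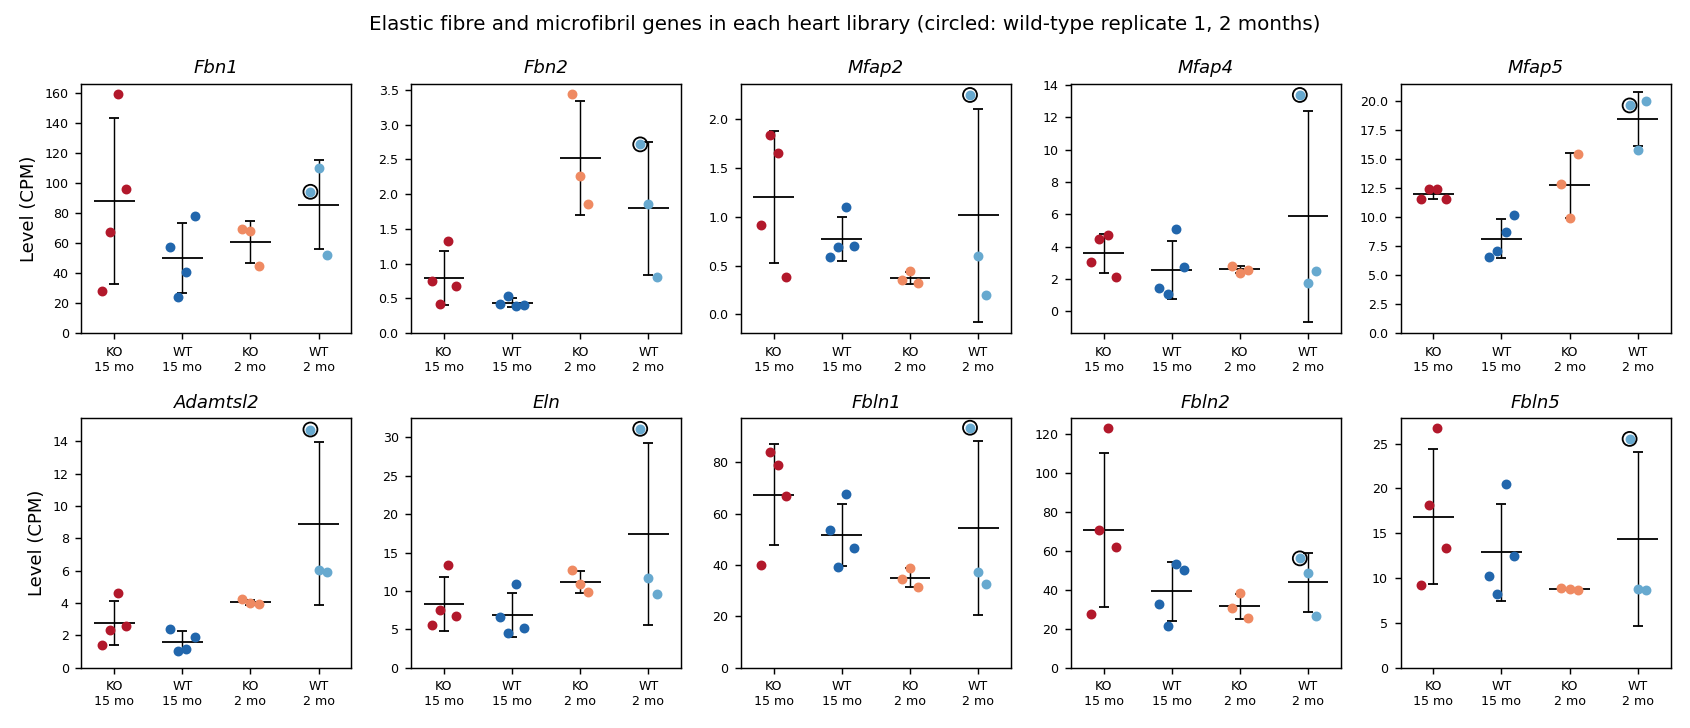
Level of each of the 10 genes in every library, in CPM on a linear axis, for knockout and wild-type hearts at 15 and at 2 months; each point is 1 heart, the horizontal line is the group mean, the bar is the SD (n = 4 at 15 months, n = 3 at 2 months) and the circled point is wild-type replicate 1 at 2 months. The circled heart is the highest of all 14 for Mfap2, Mfap4, Adamtsl2, Eln and Fbln1, while for Mfap5 it sits beside the other two 2-month wild-type hearts.

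Levels between genes were compared per kilobase of annotated exon. Fbln1 had the highest mean in each group, with 15.4 ± 4.54 CPM per kb in 15-month knockout, 11.9 ± 2.76 in 15-month wild-type, 8.02 ± 0.846 in 2-month knockout and 12.5 ± 7.74 in 2-month wild-type hearts (SD). Fbln2, Fbn1 and Mfap5 took the next 3 places in every group, and the ranges of Fbln2 and Fbn1 over libraries overlapped in all 4. Fbln5, Mfap4 and Eln held places 5 to 7 in every group, with overlapping ranges between neighbours. The range of Fbln1 did not overlap that of the next gene in 15-month wild-type and 2-month knockout hearts. Fbn2 was the lowest in every group, at 0.060 ± 0.029 CPM per kb in 15-month knockout, 0.0329 ± 0.00483 in 15-month wild-type, 0.191 ± 0.0619 in 2-month knockout and 0.136 ± 0.0721 in 2-month wild-type hearts. Its range did not overlap that of the next gene up in 3 groups, the exception being 2-month wild-type hearts. The lowest counts behind a value were 11 to 70 reads for Fbn2 and 5 to 58 reads for Mfap2, whereas Fbn1 had 522 to 5289 reads.

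With age in wild-type hearts all 10 genes had a log2 fold change below 0, and 3 passed the test, all lower at 15 months. These were Mfap5, Adamtsl2 and Fbn2. The median of the 10 was −0.98, against −0.02 over all genes tested. With wild-type replicate 1 at 2 months left out, 5 of the 10 were below 0, with a median of −0.27, and 2 passed, Mfap5 and Adamtsl2. The test was edgeR's quasi-likelihood test with Benjamini-Hochberg adjustment over all 15528 genes, in which 1.04% of genes were called and 0.425% were called lower.

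Mfap5, a microfibril glycoprotein, was at 6.55, 7.04, 8.70 and 10.2 CPM in the 15-month wild-type hearts, against 19.6, 15.8 and 19.9 CPM in the 2-month wild-type hearts. All 4 older hearts were below all 3 younger ones. The group means were 8.12 ± 1.65 CPM (SD, n = 4) at 15 months and 18.4 ± 2.32 CPM (SD, n = 3) at 2 months, a log2 fold change of −1.18 (SE 0.18, Benjamini-Hochberg adjusted p = 0.00582 by the edgeR test). Without wild-type replicate 1 at 2 months the value was −1.13 (edgeR adjusted p = 0.0184).

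Adamtsl2, the fibrillin-binding glycoprotein, was at 2.41, 1.02, 1.14 and 1.88 CPM in the 15-month wild-type hearts, against 14.7, 6.03 and 5.95 CPM in the 2-month wild-type hearts. The highest older heart was below the lowest younger heart by more than the whole spread of the older group. The log2 fold change was −2.46 (SE 0.41, Benjamini-Hochberg adjusted p = 0.011 by the edgeR test). Without the 2-month heart at 14.7 CPM it was −1.87 (edgeR adjusted p = 0.0282). Both Mfap5 and Adamtsl2 passed under all 25 alternatives run, with log2 fold changes from −1.31 to −1.09 for Mfap5 and from −2.73 to −1.87 for Adamtsl2.

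Fbn2, the developmental fibrillin, was at 0.413, 0.529, 0.390 and 0.405 CPM in the 15-month wild-type hearts, against 2.71, 1.85 and 0.812 CPM in the 2-month wild-type hearts. The groups did not overlap, and the younger hearts differed among themselves by more than the older ones. The log2 fold change was −2.04 (SE 0.44, Benjamini-Hochberg adjusted p = 0.043 by the edgeR test). The call rested on few reads, 11 to 13 per library at 15 months and 21 to 70 at 2 months. It was lost when any 1 of 10 libraries was left out, namely knockout replicates 1, 2 or 3 or wild-type replicates 1 or 2 at 2 months, or knockout replicate 4 or any wild-type replicate at 15 months, with edgeR adjusted p between 0.0535 and 0.155 and log2 fold changes from −2.14 to −1.57.

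Eln, which encodes elastin itself, was at 6.65, 4.52, 10.9 and 5.20 CPM in the 15-month wild-type hearts, against 31.1, 11.6 and 9.62 CPM in the 2-month wild-type hearts. The groups overlapped, and the log2 fold change of −1.35 (SE 0.40) missed the threshold (Benjamini-Hochberg adjusted p = 0.0966 by the edgeR test). Without wild-type replicate 1 at 2 months it was −0.62. For Fbn1 the log2 fold change was −0.77 (SE 0.47) and for Mfap4 −1.19 (SE 0.60). Mfap2 gave −0.41 (SE 0.63), and the fibulins Fbln1, Fbln2 and Fbln5 gave −0.08 (SE 0.33), −0.15 (SE 0.41) and −0.16 (SE 0.41). None of these 7 passed, and without that 1 heart 5 of them, Mfap2, Mfap4, Fbln1, Fbln2 and Fbln5, were above 0, at 1.05, 0.29, 0.58, 0.08 and 0.57.

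Groups of libraries did not overlap for Fbn2, Mfap5 and Adamtsl2, each lower at 15 months in wild type, where 7.57% of all genes tested were lower without overlap. With all libraries, fibroblast markers moved in the same direction in this comparison. Of the 10, 9 had a log2 fold change below 0 and none passed, with a median of −0.52. Summed levels were 685 to 1357 CPM in 15-month hearts, against 875 to 2223 CPM in 2-month hearts. Without wild-type replicate 1 at 2 months, 6 of the 10 were below 0, with a median of −0.08. As an alternative chosen after the data were seen, the summed fibroblast markers of each library were used as a covariate. The log2 fold changes were then −1.11 for Mfap5, −2.02 for Adamtsl2 and −1.63 for Fbn2. All 3 were called (edgeR adjusted p = 0.0107, 0.0207 and 0.0488), in a fit that called 1707 of all genes in place of 161. The part of fibroblast content in these values was not tested further.

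With age in knockout hearts the 10 genes divided. Log2 fold changes were above 0 for 6 and below 0 for 4, with a median of 0.50, against 0.01 over all genes tested. None passed edgeR's quasi-likelihood test with Benjamini-Hochberg adjustment, where 2.25% of all genes were called. At an unadjusted p below 0.05 there were 5 of the 10 genes, against 4151 of all genes (26.7%). DESeq2 called 3 of the 10, Fbn2, Fbln1 and Fbln2, where it called 1600 of all genes, while limma voom called none of the 10.

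Fbn2 was at 0.755, 0.417, 1.32 and 0.673 CPM in the 15-month knockout hearts, against 3.44, 2.26 and 1.86 CPM in the 2-month knockout hearts. All 4 older hearts were below all 3 younger ones, as in wild type. The log2 fold change was −1.65 (SE 0.42, Benjamini-Hochberg adjusted p = 0.0537 by the edgeR test), just short of the threshold. It passed without wild-type replicate 1 or 3 at 2 months, without knockout replicate 1 at 15 months or without wild-type replicate 2 at 15 months, with edgeR adjusted p of 0.0378, 0.0395, 0.0242 and 0.0491.

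Fbln1, the most abundant of the 10 per kilobase, was at 39.9, 84.2, 79.0 and 66.8 CPM in the 15-month knockout hearts, against 34.6, 39.0 and 31.6 CPM in the 2-month knockout hearts. Fbln5 was at 9.22, 18.2, 26.7 and 13.3 CPM in the 15-month knockout hearts, against 8.84, 8.73 and 8.69 CPM in the 2-month knockout hearts. In both genes every older heart was above every younger heart, with knockout replicate 1 the lowest of the older hearts and the 3 younger hearts close together. The log2 fold changes were 0.95 (SE 0.33) for Fbln1 and 0.95 (SE 0.42) for Fbln5, with edgeR adjusted p of 0.106 and 0.168 (quasi-likelihood test, Benjamini-Hochberg). Fbln2, at 27.6 to 123 CPM in 15-month and 25.6 to 38.3 CPM in 2-month knockout hearts, gave 1.17 (SE 0.42, edgeR adjusted p = 0.112).

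Leaving out knockout replicate 1 at 15 months, the heart with the highest mitochondrial share, brought Fbln1 to 1.13 and Fbln2 to 1.43 (edgeR adjusted p = 0.0273 and 0.0192), and the number of genes called among all tested was then 3523 in place of 349. Without wild-type replicate 1 at 2 months Fbln1 also passed (0.96, edgeR adjusted p = 0.0399). Mfap2 gave 1.69 (SE 0.70), Fbn1 0.53 (SE 0.47) and Mfap4 0.48 (SE 0.63). Eln gave −0.42 (SE 0.40), Adamtsl2 −0.55 (SE 0.40) and Mfap5 −0.09 (SE 0.18), none past the threshold.

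Groups of libraries did not overlap for Fbln1 and Fbln5, higher at 15 months in knockout, where 8.83% of all genes were higher without overlap, and for Fbn2, lower, where 11.3% were. Fibroblast markers were above 0 for 8 of 10 with none passing and a median of 0.48, and their summed level was 1038 to 1736 CPM in 15-month and 928 to 1123 CPM in 2-month knockout hearts. Endothelial markers summed to 349 to 1228 CPM and 348 to 401 CPM in the same groups. With fibroblast markers as a covariate, Fbln1 gave 0.55, Fbln2 0.65, Fbln5 0.42 and Fbn2 −1.87. The part of fibroblast or vessel content in these values was not tested further.

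**Figure D2:**
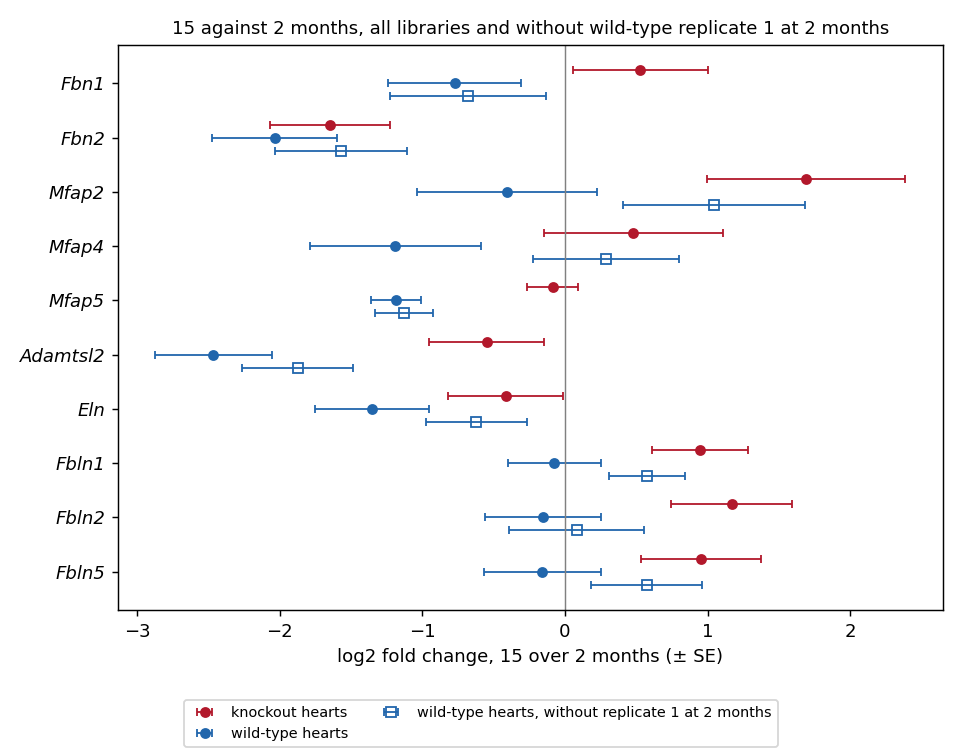
Log2 fold change of each of the 10 genes at 15 over 2 months (horizontal axis, ± SE) in knockout and wild-type hearts, from edgeR, with open symbols for the same fit without wild-type replicate 1 at 2 months. Fbn2, Adamtsl2 and Eln lie left of 0 in every fit shown, and Fbln1, Fbln2 and Fbln5 lie right of 0 in knockout hearts and, without that 1 library, also in wild-type hearts.

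The level of none of the 10 genes alone separated the 8 older from the 6 younger hearts, but several ratios between them did. For each of the 45 pairs the ratio of their CPM per kb was taken within each library, a measure chosen after the data were seen and given without a test. For 10 of the 45 pairs the 8 libraries at 15 months did not overlap the 6 at 2 months, whatever the genotype, and the count was the same with the pseudocount of 0.5 used for all gene pairs. Among all 120551628 pairs of tested genes the share was 3.48%. In 9 of the 10 pairs Fbn2, Adamtsl2 or Eln was lower relative to Fbln1, Fbln2 or Fbln5 at 15 months, which are all 9 pairs that can be formed between these groups of 3. The tenth was Fbn1 over Adamtsl2, at 13.2 to 27.4 in 15-month hearts, against values that started at 4.20 and all lay below 13.2 in 2-month hearts. The pairs share genes and libraries and are not independent.

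Elastin over fibulin-5 shows the pattern with the least spread. The ratio of Eln to Fbln5 was 0.514, 0.354, 0.429 and 0.431 in 15-month knockout hearts and 0.553, 0.469, 0.456 and 0.355 in 15-month wild-type hearts. In the younger hearts it was 1.23, 1.07 and 0.965 in knockout and 1.04, 1.13 and 0.944 in wild type. Elastin transcripts were thus about level with those of fibulin-5 per kilobase at 2 months and below them in every heart at 15 months. The 1.04 belongs to wild-type replicate 1, so the heart that stood apart in the level of both genes lay among the other 2-month hearts in their ratio.

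Adamtsl2 over Fbln5 was 0.131, 0.112, 0.150 and 0.166 in 15-month knockout hearts, 0.203, 0.107, 0.048 and 0.130 in 15-month wild-type hearts, 0.415, 0.395 and 0.394 in 2-month knockout hearts and 0.499, 0.594 and 0.592 in 2-month wild-type hearts. The genotypes also parted at 2 months, where each knockout heart was below each wild-type heart. Fbn2 over Fbln5 was 0.012 to 0.0428 in 15-month knockout and 0.00995 to 0.0337 in 15-month wild-type hearts. At 2 months it was 0.112 to 0.203 in knockout and 0.0488 to 0.110 in wild-type hearts. Here the younger knockout hearts were above the younger wild-type hearts, the reverse of Adamtsl2.

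**Figure D3:**
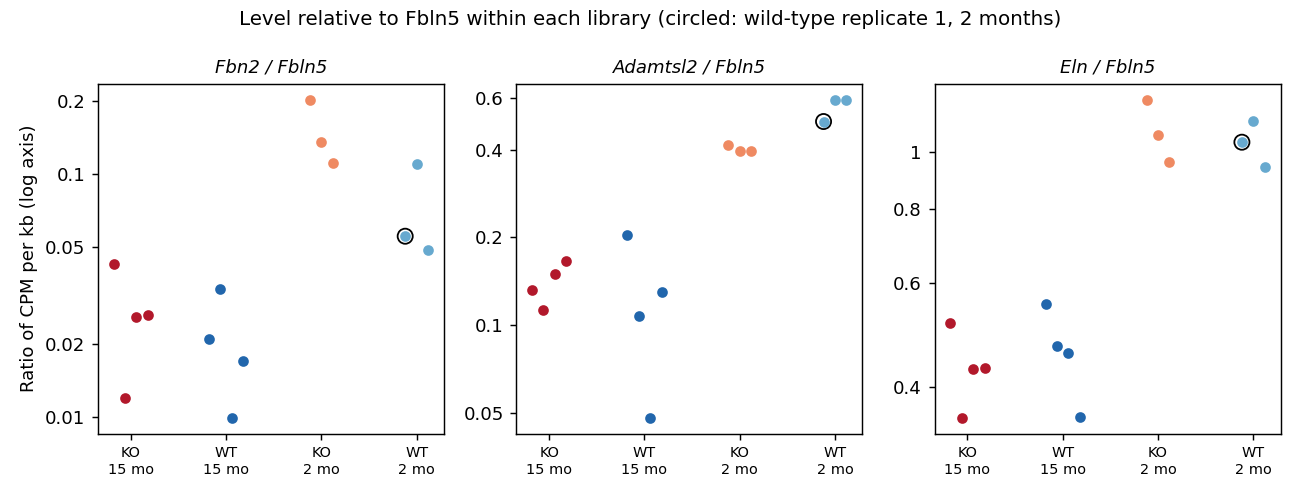
Ratio of Fbn2, Adamtsl2 and Eln to Fbln5 within each library (CPM per kb, log axis), 1 point a heart, in knockout and wild-type hearts at 15 and at 2 months, with wild-type replicate 1 at 2 months circled. In all 3 panels the 8 older hearts lie below the 6 younger hearts, for Eln at 0.354 to 0.553 against 0.944 to 1.23.

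Read within 1 genotype, 20 of the 45 pairs did not overlap between ages in knockout hearts and 14 in wild-type hearts (19 and 13 with the pseudocount), where the shares of all gene pairs were 20.6% and 16.4%. Between genotypes no pair was without overlap at 15 months (2.05% of all gene pairs) and 10 pairs were at 2 months (8.38%), all of them with Fbn2 or Adamtsl2. The relation of level to exon length also moved with age. The slope of a library's log2 CPM on log2 exon length was −0.0796 to 0.223 at 15 months, below 0 in knockout replicate 1 and wild-type replicate 2, and −0.172 to −0.0126 at 2 months, so longer transcripts were the relatively higher ones in most older hearts. Fbn2, Eln and Adamtsl2 are longer (13215, 8098 and 7993 bases of exon) than Fbln5, Fbln2 and Fbln1 (6911, 6370 and 4368 bases), and were the lower ones in older hearts. The part of transcript length in these ratios was not tested.

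Between genotypes at 15 months all 10 genes had a log2 fold change above 0 in knockout hearts, with a median of 0.60, against 0.01 over all genes tested. None passed edgeR's quasi-likelihood test with Benjamini-Hochberg adjustment, in which 0.00644% of genes, Sqstm1 alone, were called. Unadjusted p was below 0.05 for 2 of the 10, Mfap5 and Fbln2, against 616 of all genes, and neither DESeq2 nor limma voom called any of the 10.

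Mfap5 was at 11.5, 12.4, 12.4 and 11.6 CPM in the 15-month knockout hearts, against 6.55, 7.04, 8.70 and 10.2 CPM in the 15-month wild-type hearts. All 4 knockout hearts were above all 4 wild-type hearts, which among the 10 genes was the case for Mfap5 alone, and 0.76% of all genes were higher without overlap. The knockout hearts lay within 1 CPM of each other. The log2 fold change was 0.56 (SE 0.16, unadjusted p = 0.0041, Benjamini-Hochberg adjusted p = 0.999 by the edgeR test).

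The other 9 genes overlapped between genotypes at 15 months. Fbn2 gave 0.88 (SE 0.43), Fbln2 0.85 (SE 0.38), Fbn1 0.81 (SE 0.44), Adamtsl2 0.78 (SE 0.39) and Mfap2 0.65 (SE 0.58), and Mfap4, Fbln5, Fbln1 and Eln gave 0.47, 0.39, 0.38 and 0.29. Knockout replicate 3 held the highest level of Fbn1 (159 CPM), Fbln2 (123 CPM) and Fbln5 (26.7 CPM) of all 14 libraries, and also the highest endothelial sum (1228 CPM) and length slope (0.223). Without it Fbn1 gave 0.35, Fbln2 0.44, Fbln5 0.08 and Eln −0.04, whereas Mfap5 gave 0.55. Fibroblast markers were above 0 in 10 of 10, with a median of 0.40 and none passing, and summed to 1038 to 1736 CPM in knockout and 685 to 1357 CPM in wild-type hearts. With these as a covariate Mfap5 gave 0.49 and Fbln1, Fbln5, Mfap4, Mfap2 and Eln were below 0.

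At 2 months the direction was the other way. In knockout hearts 9 of the 10 genes had a log2 fold change below 0 and 1, Fbn2, above 0, with a median of −0.64, against −0.0015 over all genes tested. This direction rested on wild-type replicate 1, without which 4 were below 0 and 6 above, with a median of 0.0028. None passed edgeR's quasi-likelihood test with Benjamini-Hochberg adjustment, in which 0.00644% of genes, again Sqstm1 alone, were called. Unadjusted p was below 0.05 for 2, Mfap5 and Adamtsl2, against 494 of all genes, and neither DESeq2 nor limma voom called any of the 10.

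Mfap5 was at 12.8, 9.88 and 15.4 CPM in the 2-month knockout hearts, against 19.6, 15.8 and 19.9 CPM in the 2-month wild-type hearts. Adamtsl2 was at 4.24, 3.99 and 3.96 CPM in the 2-month knockout hearts, against 14.7, 6.03 and 5.95 CPM in the 2-month wild-type hearts. For both genes each knockout heart was below each wild-type heart, with a gap of under 1 CPM for Mfap5, and 3.72% of all genes were lower without overlap. The log2 fold changes were −0.54 (SE 0.19) for Mfap5 and −1.14 (SE 0.43) for Adamtsl2, and −0.49 and −0.55 without wild-type replicate 1.

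The remaining values depended on that heart. Mfap2 gave −1.45 (SE 0.73) with it and 0.00078 without, Mfap4 −1.19 (SE 0.66) and 0.28, Fbln5 −0.72 (SE 0.44) and 0.0092, Eln −0.65 (SE 0.43) and 0.08, and Fbln1 −0.64 (SE 0.35) and 0.0047. Fbln2 gave −0.48 (SE 0.44) and −0.25, Fbn1 −0.49 (SE 0.50) and −0.41. Fbn2 gave 0.49 (SE 0.44) and 0.95. Fibroblast markers were below 0 in 10 of 10 with that heart, with a median of −0.60 and none passing. Without it 8 of the 10 were below 0, with a median of −0.17. They summed to 928 to 1123 CPM in knockout and 875 to 2223 CPM in all 3 wild-type hearts.

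**Figure D4:**
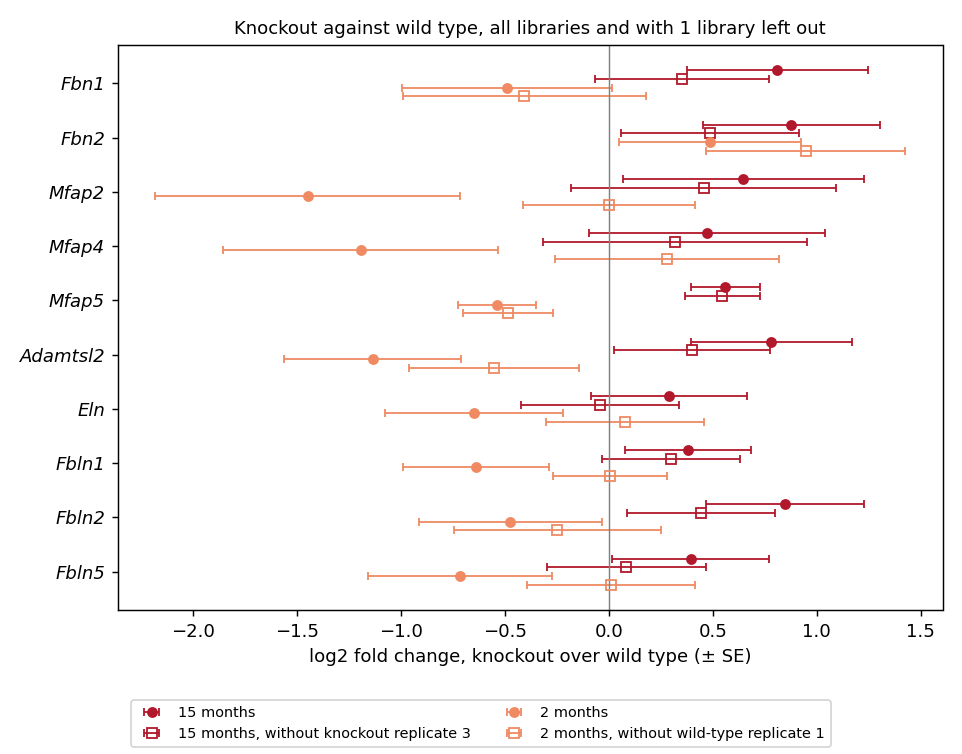
Log2 fold change of each of the 10 genes in knockout over wild-type hearts (horizontal axis, ± SE) at 15 and at 2 months, from edgeR, with open squares for the same fits without 1 library (knockout replicate 3 at 15 months, wild-type replicate 1 at 2 months). No value passed the test; Mfap5 keeps 0.55 and −0.49 without those libraries, while Mfap2, Mfap4, Eln, Fbln1 and Fbln5 lie between 0.00078 and 0.28 at 2 months once wild-type replicate 1 is left out.

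Averaged over both ages the genotype effects of the 10 genes were small, with 4 above 0 and 6 below 0 and a median of −0.15, against 0.00084 over all genes. All 10 were above 0 when wild-type replicate 1 at 2 months was left out, with a median of 0.21. None passed edgeR's quasi-likelihood test with Benjamini-Hochberg adjustment (0.00644% of all genes called), 1 gene, Fbn2 at 0.68 (SE 0.31), had an unadjusted p below 0.05, against 506 of all genes, and neither DESeq2 nor limma voom called any. Mfap5 averaged 0.01 (SE 0.12). The question whether the knockout effect differed between ages was put to the difference itself, the effect at 15 months minus that at 2 months. It was above 0 for all 10 genes with a median of 1.20, against 0.01 over all genes. Leaving out wild-type replicate 1 at 2 months, it was above 0 for 9 of the 10, with a median of 0.52. Fibroblast markers were above 0 in 10 of 10 for the same difference (median 0.99, and 0.59 without that heart), macrophage markers in 7 of 7 (median 0.42) and valve and outflow tract markers in 6 of 6 (median 2.56, but −1.07 without that heart). Atrial markers were above 0 in 4 of 5 (median 6.13, but −1.79 without that heart). Markers of epicardium and mesothelium (1 of 5 above 0, median −1.24) and of cardiac muscle (1 of 8, median −0.17) went the other way. With the fibroblast markers as a covariate Fbn2, Mfap4, Eln and Fbln5 were below 0, and the part of cell content in the difference was not tested further. For 5 of the 10 the unadjusted p was below 0.05, against 577 of all genes, but no gene of the 15528 passed edgeR's quasi-likelihood test with Benjamini-Hochberg adjustment (0.0% called), and neither DESeq2 nor limma voom called any of the 10. Mfap5 gave a difference of 1.10 (SE 0.25, unadjusted p = 0.00057, edgeR adjusted p = 0.9999) and Adamtsl2 1.92 (SE 0.58, unadjusted p = 0.0047). Without wild-type replicate 1 at 2 months the differences were 1.05 for Mfap5 and 1.34 for Adamtsl2, and for Fbn2 the sign turned, with −0.06 in place of 0.39.

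Of 51 genes of 4 related lists, 49 were tested. The lists were 20 assembly partners of elastic fibres, 5 lysyl oxidases, 12 proteases and inhibitors of elastin and matrix, and 14 genes of TGF-beta signalling, and Emilin3 and Elane were not tested. Across the 6 comparisons 1 gene passed in 1 comparison with all libraries. Efemp1, which encodes fibulin-3, a relative of fibulin-5, was higher with age in knockout hearts, where 2.25% of all genes were called. The 1 call among 49 genes is near that share.

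Efemp1 was at 13.1, 16.5, 17.1 and 15.9 CPM in the 15-month knockout hearts, against 5.96, 4.74 and 5.74 CPM in the 2-month knockout hearts. All 4 older hearts were above all 3 younger ones, as for 8.83% of all genes. The gap was wider than the spread within either group. The log2 fold change was 1.51 (SE 0.28, Benjamini-Hochberg adjusted p = 0.0168 by the edgeR test), and it missed the threshold without knockout replicate 1, 2 or 3 at 2 months (edgeR adjusted p = 0.0849, 0.0743 and 0.0776). In wild type Efemp1 was at 12.9, 7.94, 14.6 and 14.4 CPM in the 15-month hearts, against 7.83, 7.64 and 3.17 CPM in the 2-month hearts, a log2 fold change of 1.01 (SE 0.28) that missed the threshold (edgeR adjusted p = 0.0828). It passed there without wild-type replicate 1 at 2 months, without knockout replicate 1 at 15 months or without wild-type replicate 2 at 15 months (edgeR adjusted p = 0.0484, 0.0479 and 0.0499). The difference of the age effects is the same quantity as the difference of the knockout effects, in which no gene passed.

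Among the other assembly partners 15 of 19 tested were above 0 with age in knockout hearts and 12 of 19 in wild-type hearts, counts that include Efemp1, with medians of 0.65 and 0.20. The wild-type count was 15 of 19, with a median of 0.48, once wild-type replicate 1 at 2 months was left out. Adamts6, a secreted metalloprotease, gave −0.86 (SE 0.27, edgeR adjusted p = 0.105) with age in wild type. The 5 lysyl oxidases, the enzymes that cross-link elastin and collagen, were all above 0 with age in knockout hearts (median 0.88) and all below 0 in wild-type hearts (median −0.43), none passing. Without that heart 3 of the 5 were above 0 in wild type (median 0.11). Loxl4 gave 1.35 (SE 0.39, edgeR adjusted p = 0.0739) and Loxl3 0.91 (SE 0.43) in knockout, and Lox −1.003 (SE 0.44) and Loxl2 −0.43 (SE 0.41) in wild type, where Lox gave −0.24 without that heart.

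Of the 11 tested proteases and inhibitors, 8 were above 0 with age in knockout hearts (median 0.51) and 4 in wild-type hearts (median −0.14, but 8 above 0 and a median of 0.28 without wild-type replicate 1 at 2 months), with no gene past the threshold. Timp3, an inhibitor of metalloproteases, gave 0.999 (SE 0.36) and Mmp2, a gelatinase that was also on the fibroblast list, 1.263 (SE 0.50) in knockout. In wild type Ctss, a protease that degrades elastin, gave −0.57 (SE 0.17) and Timp4, an inhibitor abundant in the heart, −1.07 (SE 0.38). Of the 14 genes of TGF-beta signalling, 11 were above 0 with age in knockout hearts (median 0.37) and 8 in wild-type hearts (median 0.03, but 6 above 0 and a median of −0.076 without that heart). The receptor Tgfbr2 gave 0.98 (SE 0.26, edgeR adjusted p = 0.0572) and the ligand Tgfb2 1.31 (SE 0.35, edgeR adjusted p = 0.0611) in knockout, and both passed without wild-type replicate 1 at 2 months (edgeR adjusted p = 0.0358 and 0.0441). In wild type Skil, a repressor of Smad proteins, gave −0.66 (SE 0.18, edgeR adjusted p = 0.079) and Ccn2, a matrix protein induced by TGF-beta, −0.95 (SE 0.39).

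Between genotypes no gene of the 4 lists passed at either age. At 15 months the 5 lysyl oxidases were all above 0 in knockout (median 0.64), led by Loxl2 at 0.97 (SE 0.38) and Loxl4 at 0.64 (SE 0.34), and at 2 months all 5 were below 0 (median −0.77), with Loxl3 at −0.84 (SE 0.46) and Loxl4 at −0.80 (SE 0.42). Assembly partners were above 0 for 11 of 19 at 15 months (median 0.04), with Adamtsl3 at 0.67 (SE 0.33) and Adamts17 at 0.80 (SE 0.56), and for 5 of 19 at 2 months (median −0.29), with Ltbp2, a latent TGF-beta binding protein, at −2.54 (SE 0.94) and the proteoglycan gene Vcan at −0.97 (SE 0.45). Proteases and inhibitors were above 0 for 9 of 11 at 15 months (Mmp14 0.75, SE 0.40; Mmp2 0.84, SE 0.45) and for none at 2 months (Mmp2 −0.73, SE 0.53; Mmp9 −0.82, SE 0.72). The receptor Tgfbr1 gave 0.17 (SE 0.11) at 15 months and −0.45 (SE 0.13) at 2 months, and Tgfb3 gave −0.30 (SE 0.18) at 2 months. Of the genes of TGF-beta signalling 11 of 14 were above 0 at 15 months and 3 of 14 at 2 months.

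Most of these 2-month values rested on wild-type replicate 1. Without it the lysyl oxidases, still all below 0, had a median of −0.069, assembly partners were above 0 for 12 of 19 (median 0.050), proteases and inhibitors for 4 of 11 and genes of TGF-beta signalling for 5 of 14. Ltbp2 then gave 0.053, Loxl3 −0.0072, Mmp2 −0.15, Mmp9 −0.34, Tgfb3 −0.14 and Vcan −0.57 on the log2 scale, whereas Loxl4 at −0.59 and Tgfbr1 at −0.36 moved less.

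Averaged over ages the values by the same rule were Ltbp2 −1.34, Hmcn1 −0.24, Loxl3 −0.32, Loxl2 0.31, Mmp9 −0.57, Mmp14 0.28, Ccn2 −0.49 and Tgfbr1 −0.14. For the difference between ages they were Adamtsl3 1.30, Adamts17 2.16, Loxl4 1.44, Loxl2 1.31, Mmp2 1.56, Timp3 0.88, Tgfbr1 0.62 and Skil 0.41. None passed the edgeR test, and all are log2 values. With that 2-month wild-type replicate 1 left out, the averaged values of Ltbp2, Loxl3, Hmcn1, Mmp9 and Mmp14 were −0.041, 0.095, −0.15, −0.32 and 0.51, and the difference for Mmp2 was 0.998.

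Within groups the 10 genes tended to vary together from heart to heart. Over the 14 libraries, Pearson's r of log2 CPM deviations from the group means had a median of 0.53 over the 45 pairs and ran from −0.15 to 0.94, with 44 pairs above 0. Without wild-type replicate 1 at 2 months the median was 0.50 and the range −0.29 to 0.89 over 13 libraries. Eln and Fbln5 were the closest pair (r = 0.94, and 0.89 without that heart), followed by Fbln1 and Fbln5 (0.91), Mfap4 and Fbln5 (0.89) and Eln and Fbln1 (0.88). Mfap5 shared little of this variation with most of the others, with r of −0.15 with Fbn2, 0.11 with Fbln1, 0.14 with Eln and 0.36 with Fbln5, and most with Mfap4 (0.47, and 0.55 without that heart). These coefficients are descriptions, since the points share library depth and tissue content.

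The same deviations were set beside the summed fibroblast markers. Fbln5 gave r = 0.81, Mfap4 0.80, Fbln1 0.78, Fbln2 0.77, Mfap2 0.76, Eln 0.72, Fbn1 0.55, Adamtsl2 0.52, Fbn2 0.43 and Mfap5 0.38 (14 libraries). With all 14 libraries the fibulins, Mfap4, Mfap2 and Eln thus followed fibroblast markers most closely, and Mfap5 and Fbn2 the least. With wild-type replicate 1 at 2 months left out, Fbln2 gave 0.79, Fbln5 0.71, Mfap4 0.69, Fbln1 0.65 and Mfap2 0.62. Fbn1 then gave 0.60, Eln 0.55, Mfap5 0.36, Adamtsl2 0.25 and Fbn2 0.16. Without that heart Fbn1 was thus above Eln, and Adamtsl2 below Mfap5. The 10 genes together summed to 12.3% to 28.8% of the fibroblast marker sum in 15-month knockout, 15.4% to 21.5% in 15-month wild-type, 15.6% to 18.7% in 2-month knockout and 15.9% to 18.2% in 2-month wild-type hearts, with knockout replicates 1 and 3 at both ends of the first range.

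**Figure D5:**
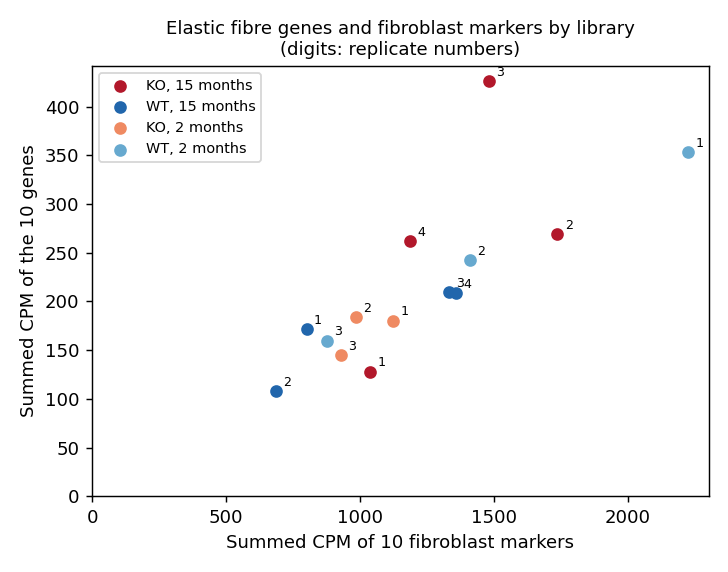
Summed CPM of the 10 elastic fibre and microfibril genes (vertical axis) against the summed CPM of 10 fibroblast markers (horizontal axis), 1 point a library, coloured by group with replicate numbers beside the points. Wild-type replicate 1 at 2 months has the highest marker sum (2223 CPM) and knockout replicate 3 at 15 months the highest sum of the 10 genes (426 CPM) at a marker sum of 1481 CPM.

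Outside the 10, the genes whose profile over the 14 libraries was most like the mean profile of the set, among 12714 genes with a mean of at least 1 CPM, were Col1a2 (r = 0.94), Fstl1 (0.93), Col5a2 (0.93), Gas1 (0.90), Sema5a (0.90), Nsg1 (0.90), Ccdc80 (0.89) and Col1a1 (0.89). Col1a1, Col1a2 and Col5a2 encode fibrillar collagens. The profile used here is the mean log2 CPM deviation of the 10 genes from their means over all libraries.

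Other cell types were followed by their markers. In smooth muscle, which makes elastin in arteries, 1 of 6 markers passed in 1 comparison with all libraries. This was with age in knockout hearts, where 3 of the 6 were above 0 and 3 below 0 (median 0.11). In that comparison 2.25% of all genes were called and 11.3% were lower without overlap. Without wild-type replicate 1 at 2 months, 1 marker was called higher and 1 lower there, and 1 higher with age in wild-type hearts. Other lists changed too when that heart was left out. With age 1 valve and outflow tract marker was called higher in each genotype, 1 endothelial marker in knockout and 1 cardiac muscle marker in wild type. The medians with age in wild type turned from −1.26 to 2.88 for valve and outflow tract, −3.27 to 3.96 for atrial and −1.57 to 2.80 for fat cell markers. Acta2, the smooth muscle actin gene, was at 36.2, 74.6, 44.6 and 54.1 CPM in 15-month knockout hearts, against 116, 137 and 138 CPM in 2-month knockout hearts, and every older heart was below every younger one. Its log2 fold change was −1.31 (SE 0.30, Benjamini-Hochberg adjusted p = 0.0372 by the edgeR test), and it passed under 17 of 25 alternatives. It missed the threshold without knockout replicate 1, 2 or 3 at 2 months (edgeR adjusted p = 0.122, 0.0977 and 0.13) and without knockout replicate 3 or 4 or wild-type replicate 4 at 15 months (edgeR adjusted p = 0.116, 0.0865 and 0.0562). In wild type Acta2 was at 53.7, 56.1, 84.5 and 58.1 CPM in the 15-month hearts, against 194, 72.4 and 103 CPM in the 2-month hearts. These ranges overlapped, and the 194 CPM belongs to wild-type replicate 1. The 6 smooth muscle markers summed to 240 to 298 CPM in 15-month knockout, 270 to 322 CPM in 15-month wild-type, 331 to 371 CPM in 2-month knockout and 258 to 476 CPM in 2-month wild-type hearts. Eln in the same knockout groups was at 5.56, 7.54, 13.4 and 6.73 CPM at 15 months, against 12.7, 10.9 and 9.83 CPM at 2 months, and these ranges overlapped through knockout replicate 3 alone.

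Reads of 3 of the 10 genes could be shared with an overlapping gene on the other strand, since the strand setting of the counting is not given in the sources used here. Mfap4 overlaps the 3′ end of Mapk7, a kinase gene with 38 to 148 reads per library where Mfap4 had 27 to 345. The partners of Fbn1 (Gm9913, 0 to 8 reads) and Eln (Gm30003, 0 to 3 reads) were nearly silent beside them.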

How the data were processed

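The authors deposited raw counts, whole reads per gene for 55487 Ensembl identifiers, in 14 columns that each match 1 sample title. The submitters' processing notes name cutadapt 1.16, STAR 2.7.3a, featureCounts 1.6.3, DESeq2 1.26.0 and the build GRCm38, and the labels name a stranded kit with depletion of ribosomal RNA. Annotation release, strand setting and handling of multiply mapped reads were not given in the sources used here. Symbols, positions and exon lengths came from GENCODE M21, which held 55227 of the identifiers.

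The fits were made in R 4.3.3 with edgeR 4.0.16 (filterByExpr, minimum count 10 and minimum total 15; TMM; robust quasi-likelihood fit of 4 group means to all 14 libraries) in 6 contrasts, with Benjamini-Hochberg adjustment over all 15528 genes and a threshold of 0.05. The fit was checked on simulated counts. The SE is the log2 fold change divided by the square root of F. Correlations used log2(CPM + 0.5). Totals were 20218992 to 30404416 counts, and no 2 libraries agreed within sampling noise (chi-square per degree of freedom at least 19.8). The labels do not say that hearts were handled separately, so the spread behind a p-value is that between these samples and may be technical.

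The 10 genes and all gene lists were chosen with earlier results of these data known. The text names all 10 genes, called list members, otherwise the 2 smallest p per pathway list and contrast, and the 8 most similar genes; 1 value by this rule is not reported here. Alternatives were RLE size factors, no filter, a mean CPM of at least 1, DESeq2 1.42.0, limma 3.58.1 voom, only the groups compared, a replicate block, no mitochondrially encoded genes, leaving out each library or 2 together, a threshold of 0.1, and, added after the data were seen, a fibroblast marker covariate and, for the related lists, leaving out wild-type replicate 1 at 2 months.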

Additional observations from a re-analysis of the deposited data

Results flagged for a closer look

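Among 26 sets of 4 libraries examined, 2 held a library farther from the others than the 95% critical value of Dixon's ratio for 4 samples (0.829), where chance gives about 1 in 20. Sqstm1 was at 37.0 CPM in knockout replicate 2 at 15 months, against 14.6 to 17.6 CPM in the other 3 knockout hearts of that age. Fbn2 was at 0.529 CPM in wild-type replicate 2 at 15 months, against 0.390 to 0.413 CPM in the other 3 wild-type hearts of that age, on 13 reads against 11 or 12.

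The knockout effect on Mfap5 at 15 months minus that at 2 months was 1.10 on the log2 scale (SE 0.25). Mfap5 was higher in all 4 knockout than in all 4 wild-type hearts at 15 months and lower in all 3 knockout than in all 3 wild-type hearts at 2 months. The difference itself had an unadjusted p of 0.00057 and a Benjamini-Hochberg adjusted p of 0.9999 in edgeR, so it did not pass over all genes, and over 24 alternatives it ran from 0.94 to 1.262 with adjusted p from 0.143 to 1.0. Mfap5 had r = 0.38 with the summed fibroblast markers over 14 libraries, and 0.36 without wild-type replicate 1 at 2 months.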

How the results depend on the processing

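Of 1623 values of a gene under an alternative, 1509 kept their direction and their side of the threshold, 25 lost and 22 gained a call and 67 turned in sign, none of the last with a call on either side. Sqstm1 between genotypes and, with age in wild type, Mfap5 and Adamtsl2 passed under every alternative run, and Fbn2 passed under 12 of 25. With age in wild type 3 of the 10 genes were called, and 2 to 4 under the alternatives. With age in knockout hearts 0 were called, and no filter gave 1, DESeq2 3, leaving out wild-type replicate 1 at 2 months together with knockout replicate 3 at 15 months 1, a threshold of 0.1 gave 1, and leaving out 1 library gave 0 to 3. In the 4 other comparisons 0 were called under every alternative run. Low counts, 5 to 70 reads a library for Mfap2 and Fbn2, limit what can be seen for these 2 genes. The cause of the changes named here was not tested.

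The number of all genes called moved by over 1.5 times. With age in wild type 161 genes were called, and 1116 by DESeq2, 86 with only the groups compared, 55 with the replicate block, 38 to 796 without 1 library, 1037 without both libraries, 706 at a threshold of 0.1 and 1707 with the fibroblast covariate. With age in knockout it was 349, and 1600, 134, 70, 49 to 3523, 159, 1616 and 173 under the same settings. DESeq2 called 7, 7 and 5 genes between genotypes (15 months, 2 months, averaged) and 1 for the difference, and no filter 3 at 2 months. Same-numbered libraries of different groups correlated at −0.44 to 0.32 in their deviations from group means. Libraries with different numbers were not compared in this way, so these values cannot decide whether replicate numbers mark pairs or batches. With the replicate block Fbn2 with age in wild type gave −1.91 (edgeR adjusted p = 0.139) and lost its call. Efemp1 (1.48) and Acta2 (−1.30) with age in knockout also lost theirs, while Mfap5 (−1.24) and Adamtsl2 (−2.46) with age in wild type kept theirs.

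The sign turned for these log2 fold changes, none of them called. Without both libraries named above, they were at 2 months Mfap4 0.28, Eln 0.078, Fbln1 0.0038 and Fbln5 0.0085, at 15 months Eln −0.045, averaged Fbn1 −0.029, Mfap2 0.23, Mfap4 0.30, Eln 0.016, Fbln1 0.15 and Fbln5 0.046, with age in wild type Mfap2 1.04, Mfap4 0.29, Fbln1 0.57, Fbln2 0.080 and Fbln5 0.57, and for the difference Fbn2 −0.46 and Eln −0.12. With the fibroblast covariate, they were at 2 months Mfap4 0.023, Eln 0.0034 and Fbln2 0.10, at 15 months Mfap2 −0.16, Mfap4 −0.092, Eln −0.15, Fbln1 −0.028 and Fbln5 −0.083, with age in wild type Mfap2 0.87, Fbln1 0.49, Fbln2 0.36 and Fbln5 0.49, with age in knockout Mfap4 −0.27, and for the difference Fbn2 −0.24, Mfap4 −0.11, Eln −0.15 and Fbln5 −0.068. With limma voom, Mfap2 gave 0.20 and Fbln1 0.061 with age in wild type.

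Leaving out 1 library in turn, the values that turned in sign ranged as follows. Between genotypes at 2 months they were −1.93 to 0.00078 for Mfap2, −1.61 to 0.28 for Mfap4, −0.93 to 0.078 for Eln, −0.89 to 0.0047 for Fbln1 and −0.96 to 0.0092 for Fbln5, and at 15 months −0.045 to 0.62 for Eln. Averaged they were −0.37 to 0.12 for Adamtsl2, −0.34 to 0.19 for Eln, −0.25 to 0.20 for Fbln1, −0.014 to 0.32 for Fbln2, −0.31 to 0.21 for Fbln5, −0.067 to 0.32 for Fbn1, −0.64 to 0.33 for Mfap2, −0.57 to 0.38 for Mfap4 and −0.071 to 0.090 for Mfap5. With age in wild type they were −0.32 to 0.58 for Fbln1, −0.39 to 0.081 for Fbln2, −0.46 to 0.57 for Fbln5, −0.89 to 1.05 for Mfap2 and −1.73 to 0.29 for Mfap4, with age in knockout −0.24 to 0.080 for Mfap5, and for the difference −0.061 to 0.74 for Fbn2, and, both libraries together included, −0.12 to 1.261 for Eln. A filter at a mean CPM of 1 left Mfap2 out.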
